A study of Glycine max with 18 samples.

Results

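The genes described here are 5 soybean (Glycine max) genes assigned to the B3 regulators ABI3, LEC2 and FUS3, of 51546 gene identifiers in the deposited files. They were chosen by identifier: ABI3 as Glyma.08G357600 on chromosome 8 and Glyma.18G176100 on chromosome 18, LEC2 as Glyma.20G035800 and Glyma.20G035700 on chromosome 20, and FUS3 as Glyma.16G050500 on chromosome 16. The files give identifiers only. The names come from that choice of members, and the RefSeq gene table of Glycine max v4.0 paired 0 identifiers with a name, although it lists an ABI3-1 on chromosome 8 and an ABI3-2 on chromosome 18.

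ABI3, LEC2 and FUS3 are plant transcription factors that bind DNA through a B3 domain and act, with the CCAAT-box factor subunit LEC1, as master regulators of seed maturation. The network is known mainly from Arabidopsis. There, LEC2 and FUS3 drive embryo identity and the onset of storage reserve synthesis, while ABI3 relays abscisic acid signals to storage protein and desiccation genes and remains important as the seed dries.

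Messenger RNA of cultivar Williams 82 was sequenced at 6 stages, in 3 biological replicates each (18 libraries). The stages were cotyledon-stage embryos (seeds of 2.5 to 3.5 mm), early maturation embryos (seeds of 6 to 7 mm), mid maturation embryos (seeds of 200 to 250 mg), late maturation (seeds of 230 to 500 mg that were completely yellow), the mature dry seed, and young seedlings at 8 days after sowing. For late maturation the labels name the seed coat beside the embryo, and for seedlings they name whole seedlings while the column heading carries the letters COT. The sample titles write the age of the seedlings as 8 DAI. No genotype or treatment differed between stages, but tissue changed with stage. Whether replicates were separate plants or harvests is not stated, so p-values measure the spread between these libraries, which may be technical. In whole tissue, fewer cells of a type and less RNA per cell cannot be told apart.

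Values are the deposited normalized values, which are reads multiplied by a factor for each library. Between 3572134 and 8776240 reads were recovered per library, and 3 reads, the floor, equal a value of 0.263 to 1.30. The 12 identifiers listed as storage globulins, whose products define the filling seed, took 0.00854% to 0.0131% of reads at the cotyledon stage, 25.2% to 25.6% at mid maturation and 0.00871% to 0.0147% in seedlings. The deposited values of a library sum to 1542222 to 1603763 at mid maturation, against 718779 to 753954 at the cotyledon stage. A gene with the same share of reads therefore has a higher deposited value at mid maturation. Results that depend on this scaling are given with plain CPM beside them, which divides by the sum of gene reads of a library with no further factor and was chosen after seeing the data. The median log2 difference over all genes tested was -0.05 for mid maturation against cotyledon with deposited scaling and -0.81 in plain CPM. With upper-quartile and median-of-ratios rescaling it was 0 and -0.03. For late against mid maturation it was -0.11 with deposited scaling and 0.05 in plain CPM.

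Of the 5 genes, 3 reached a value of 1 in 3 or more libraries and were tested with limma on log2(value + 1) among 36872 genes: both ABI3 copies and FUS3. All 3 differed among the 6 stages, as did 94.3% of the genes tested (moderated F test). The copy of ABI3 on chromosome 8 spanned 8.98 on the log2 scale between its highest and lowest stage mean (adjusted p = 1.72e-19), the copy on chromosome 18 spanned 8.28 (adjusted p = 3.84e-20), and FUS3 spanned 4.09 (adjusted p = 7.45e-15). The LEC2 genes did not pass the filter. A difference between stages is called below where the Benjamini-Hochberg adjusted p is under 0.05 and the log2 difference is 1 or more in either direction. This log2 scale understates changes of genes with low values.

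**Figure D1:**
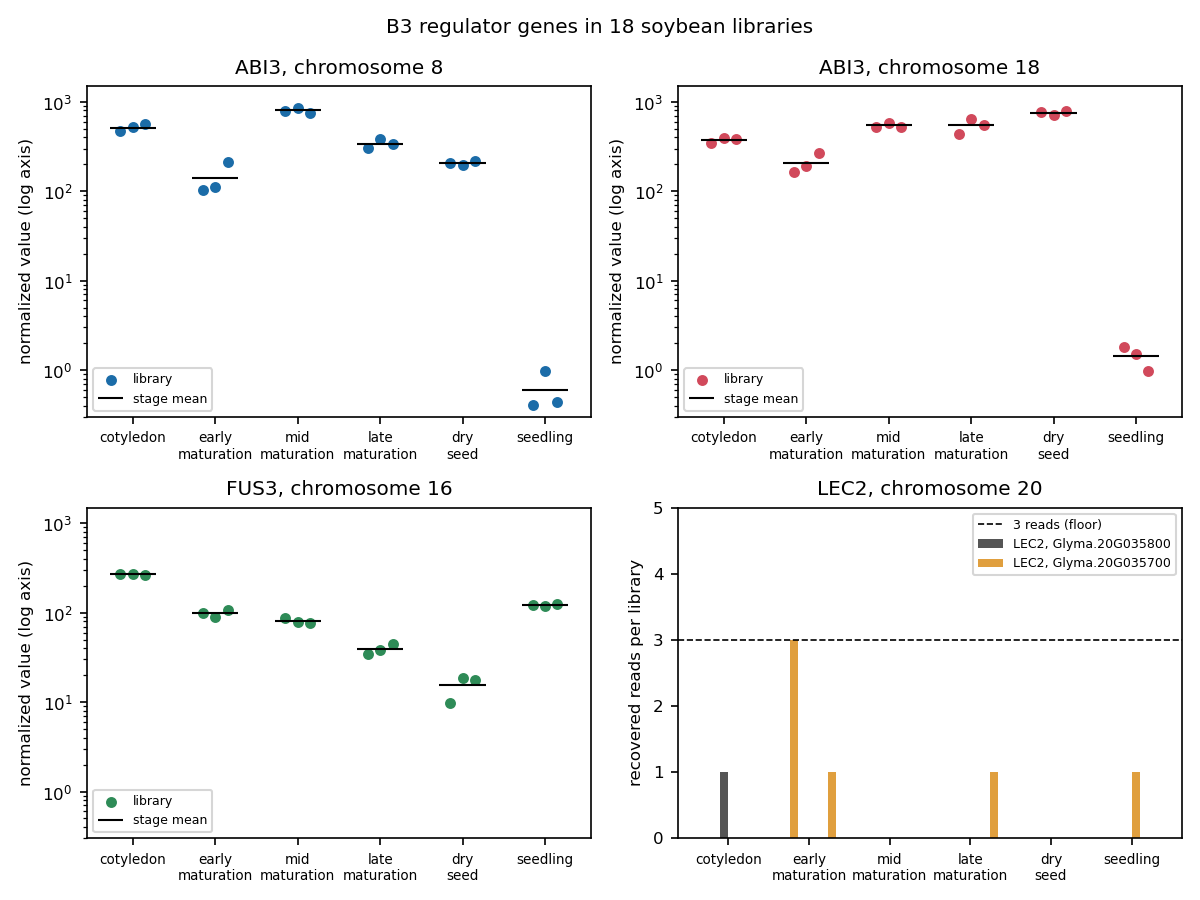
Normalized value (log axis) of ABI3 on chromosome 8, ABI3 on chromosome 18 and FUS3 in each of 18 libraries by stage, with points for libraries and lines for stage means, and recovered reads of the 2 LEC2 genes per library (linear axis). Both ABI3 copies fall to a mean of 0.605 and 1.44 in seedlings, FUS3 stands at 122.7 there, and no LEC2 bar exceeds 3 reads.

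ABI3 transcripts were abundant at every seed stage and nearly absent from seedlings. In Glyma.08G357600 (chromosome 8), cotyledon-stage libraries had values of 465, 519 and 560, and early maturation libraries 103, 111 and 210. Mid maturation libraries had 790, 857 and 754, late maturation libraries 306, 381 and 333, and dry seed libraries 206, 195 and 215. Seedling libraries had 0.407, 0.968 and 0.439, which are 4, 7 and 5 reads. The early maturation libraries all lay below those of the cotyledon stage and of mid maturation, the mid maturation libraries were the highest with deposited scaling, and seedlings were far below every seed library. Early maturation replicate 3, at 210, stood above the other 2 of its stage. It also correlated more closely across genes with mid maturation (Pearson's r 0.863 to 0.879) than the others did (0.827 to 0.853), and likewise with cotyledon-stage libraries. The part of this in the ABI3 result was not tested.

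In Glyma.18G176100 (chromosome 18), cotyledon-stage libraries had values of 349, 393 and 387, and early maturation libraries 164, 192 and 264. Mid maturation libraries had 526, 579 and 525, late maturation libraries 441, 643 and 550, and dry seed libraries 762, 705 and 784. Seedling libraries had 1.83, 1.52 and 0.966, from 18, 11 and 11 reads. The lowest seed stage was again early maturation, but this copy was highest in dry seed, where its libraries lay above those of every other stage. Of all genes tested, 17.1% had their highest mean in dry seed. Mid and late maturation libraries overlapped. In rank among the 51546 identifiers, without correction for transcript length, this copy stood at places 124 to 143 in dry seed and 338 to 727 in early maturation. Cotyledon-stage libraries held places 104 to 139 and mid maturation libraries 122 to 135. By rank, dry seed thus did not stand above these 2 stages.

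Between early maturation and the cotyledon stage, 2 of the 3 tested genes fell and 0 rose, where 18.7% of all genes tested were called and 10.2% fell. ABI3 on chromosome 8 averaged 141 ± 59.4 in early maturation and 514 ± 47.6 at the cotyledon stage (SD, n = 3 each). Its log2 difference was -1.93 (SE 0.19, limma adjusted p = 3.82e-08). The copy on chromosome 18 averaged 206 ± 51.4 in early maturation and 376 ± 23.9 at the cotyledon stage, a log2 difference of -0.89 (SE 0.163, adjusted p = 0.000122). It thus passed the adjusted p but not the limit of 1. It was called without early maturation replicate 3, at -1.08, and in plain CPM, at -1.20, where all 3 tested genes fell in this step. FUS3 was the other gene that fell.

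At mid maturation both ABI3 copies rose relative to early maturation, where 26.0% of all genes tested were called and 11.3% rose. The chromosome 8 copy averaged 801 ± 52.5 at mid maturation and 141 ± 59.4 in early maturation, a log2 difference of 2.57 (SE 0.19, adjusted p = 3.52e-10). That difference was larger than those of 97.2% of the genes tested. The chromosome 18 copy averaged 543 ± 31.1 at mid maturation and 206 ± 51.4 in early maturation, a log2 difference of 1.42 (SE 0.163, adjusted p = 2.12e-07). In plain CPM the differences were 1.80 for the chromosome 8 copy, still called, and 0.65 for the chromosome 18 copy, which was no longer called.

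In the later seed the chromosome 8 copy fell, while the chromosome 18 copy did not pass the limits. Between late and mid maturation, where 40.4% of all genes tested were called and 23.6% fell, the chromosome 8 copy fell, with 340 ± 37.7 in late and 801 ± 52.5 in mid maturation (log2 difference -1.24, SE 0.19, adjusted p = 6.09e-06). This call was lost in plain CPM, at -0.77. The chromosome 18 copy had 545 ± 101 in late and 543 ± 31.1 in mid maturation, a log2 difference of -0.01 (SE 0.163, adjusted p = 0.974). Its sign changed, to 0.45 in plain CPM, 0.13 without late maturation replicate 1 and 0.03 without mid maturation replicate 2. Late maturation replicate 1 also correlated more closely with mid maturation across genes (r 0.748 to 0.762) than the other 2 did (0.703 to 0.729), and the part of this was not tested. Between dry seed and late maturation, where 22.3% of all genes were called and 14.5% fell, neither copy passed the limit of 1. The chromosome 8 copy had 205 ± 10.4 in dry seed and 340 ± 37.7 in late maturation (log2 difference -0.72, SE 0.19, adjusted p = 0.0032). The chromosome 18 copy had 750 ± 41.0 in dry seed and 545 ± 101 in late maturation (log2 difference 0.48, SE 0.163, adjusted p = 0.019). In dry seed against mid maturation, where 51.4% of genes were called, the chromosome 8 copy fell by 1.96 on the log2 scale (SE 0.19, adjusted p = 4.94e-09). The chromosome 18 copy had a log2 difference of 0.46 (SE 0.163, adjusted p = 0.014), below the limit.

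The step from dry seed to seedling held the largest differences of both ABI3 copies among the 5 neighbouring steps, and all 3 tested genes were called in it, as were 61.5% of all genes tested (19.8% lower, 41.8% higher). The chromosome 8 copy averaged 0.605 ± 0.315 in seedlings and 205 ± 10.4 in dry seed, a log2 difference of -7.02 (SE 0.19, adjusted p = 3.68e-18). The chromosome 18 copy averaged 1.44 ± 0.439 in seedlings and 750 ± 41.0 in dry seed, a log2 difference of -8.28 (SE 0.163, adjusted p = 5.71e-20). As ratios of means, dry seed held 340 times and 521 times the seedling level. These falls exceeded in size those of 99.3% and 99.7% of the genes tested. Tissue and stage changed together in this step.

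**Figure D2:**
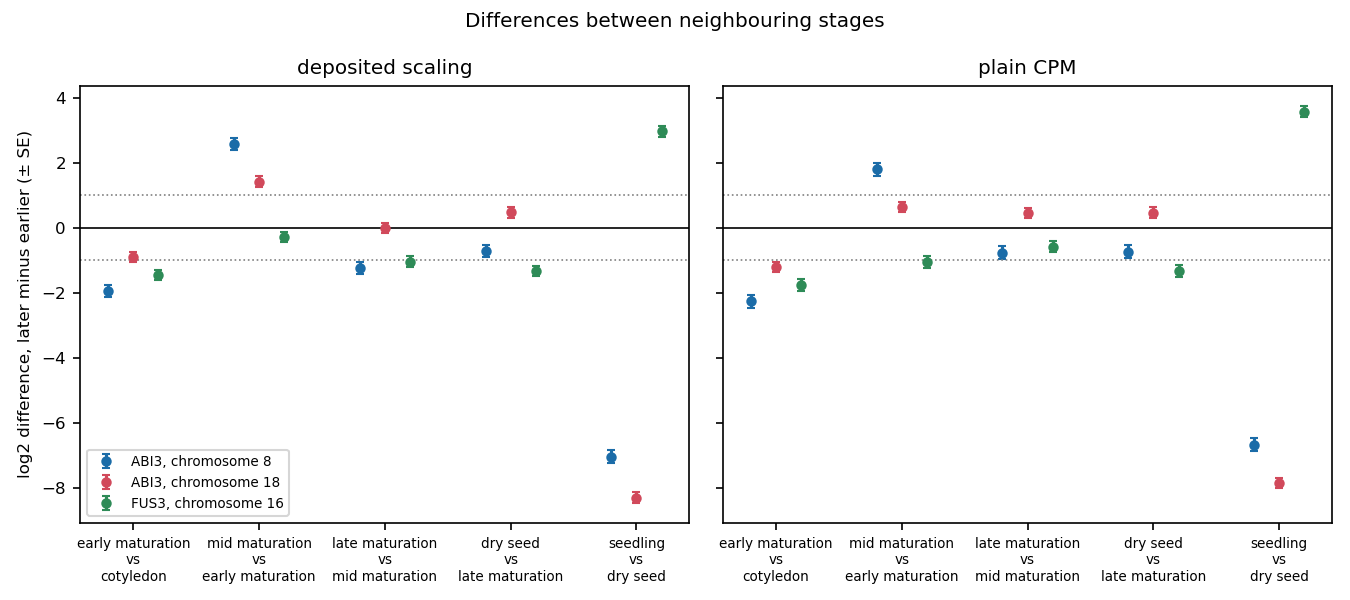
Log2 difference, later minus earlier stage, with standard errors from limma for ABI3 on chromosome 8, ABI3 on chromosome 18 and FUS3 in 5 neighbouring steps, with deposited scaling on the left and plain CPM on the right. Dotted lines mark a difference of 1 in either direction. The seedling against dry seed step holds the largest differences in both panels, downward for the ABI3 copies (-7.02 and -8.28 with deposited scaling) and upward for FUS3 (2.96).

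The order of the stages can be read for each copy from the 15 pairs of stages. For the chromosome 8 copy the order of means was mid maturation, cotyledon, late maturation, dry seed, early maturation and seedling. Of 36872 genes tested, 13 had this same order in deposited values, and 10.7% had their highest mean at mid maturation. With deposited scaling, neighbours in this order other than early maturation and seedling differed by less than the limit of 1. The log2 difference was 0.64 for mid maturation against cotyledon (29.6% of genes called), -0.60 for late maturation against cotyledon (49.7% called) and 0.61 for dry seed against early maturation, and in the last of these the libraries overlapped. The place of the peak moved in plain CPM only. With upper-quartile or median-of-ratios rescaling, edgeR and DESeq2, mid maturation stayed above the cotyledon stage, and the difference was not called. In plain CPM mid maturation had 511 ± 24.2 and the cotyledon stage 701 ± 81.2, its highest mean, and their log2 difference was then -0.45 (adjusted p = 0.0479). Late maturation against cotyledon was -1.22 in plain CPM and was called (adjusted p = 9.80e-06).

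For the chromosome 18 copy the order was dry seed, late maturation, mid maturation, cotyledon, early maturation and seedling, which 223 genes (0.605%) shared. Dry seed was its highest stage under both scalings, at 750 ± 41.0 in deposited values and 660 ± 18.8 in plain CPM. Dry seed against cotyledon had a log2 difference of 1.00 (SE 0.163, adjusted p = 9.82e-06) that fell just short of the limit of 1 before rounding, where 55.0% of genes were called. It was called in 7 of 31 alternatives, among them edgeR at 1.05, and stood at 0.37 in plain CPM. Mid and late maturation against cotyledon (0.53 and 0.52 with deposited scaling) turned to -0.56 and -0.10 in plain CPM. No other alternative reversed them. Dry seed against early maturation, with a log2 difference of 1.88 (adjusted p = 6.16e-10), was called under both scalings (1.57 in plain CPM), where 56.3% of genes were called with deposited scaling.

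The balance between the ABI3 copies was taken within each library, as the share of the chromosome 8 copy in the reads of both, which does not depend on scaling. It carries no correction for transcript length, so its changes over stages can be compared but not the levels of the copies. The share was 57.1%, 56.9% and 59.1% in the cotyledon-stage libraries and 38.6%, 36.7% and 44.3% in those of early maturation. It was 60.0%, 59.7% and 59.0% at mid maturation. Late maturation libraries had 41.0%, 37.2% and 37.8%, and those of dry seed 21.3%, 21.6% and 21.5%. The share was thus high at the cotyledon stage and mid maturation, low in early and late maturation and lowest in dry seed. Neighbouring seed stages did not overlap, and 95% exact binomial intervals for these seed libraries were at most 2.33 percentage points to either side. In seedlings the shares were 18.2%, 38.9% and 31.2%, from 22, 18 and 16 reads of both copies, and their intervals ran from 5.19% to 64.3%. These intervals cover counting error only.

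The mean log2 ratio of the chromosome 8 to the chromosome 18 copy, taken on value + 1, was -1.26 ± 0.66 over the 6 late maturation and dry seed libraries and 0.138 ± 0.564 over the 9 libraries of the 3 earlier embryo stages (SD). The difference was -1.40. No p is given for it, since the libraries of a stage were nearly alike and the 2 sets hold only 5 stages. The early maturation libraries, at -0.593 on average, lay near those of late maturation, at -0.667. Between single stages the exact permutation test of 3 libraries against 3 cannot go below p = 0.10, which each of the 4 steps between seed stages gave. The step of the log2 ratio was -1.04 for early maturation against cotyledon and 1.15 for mid against early maturation. It was -1.22 for late against mid maturation and -1.20 for dry seed against late maturation. The sources used here do not give how reads that match both copies were counted, and the part of such reads in the ratio was not tested.

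**Figure D3:**
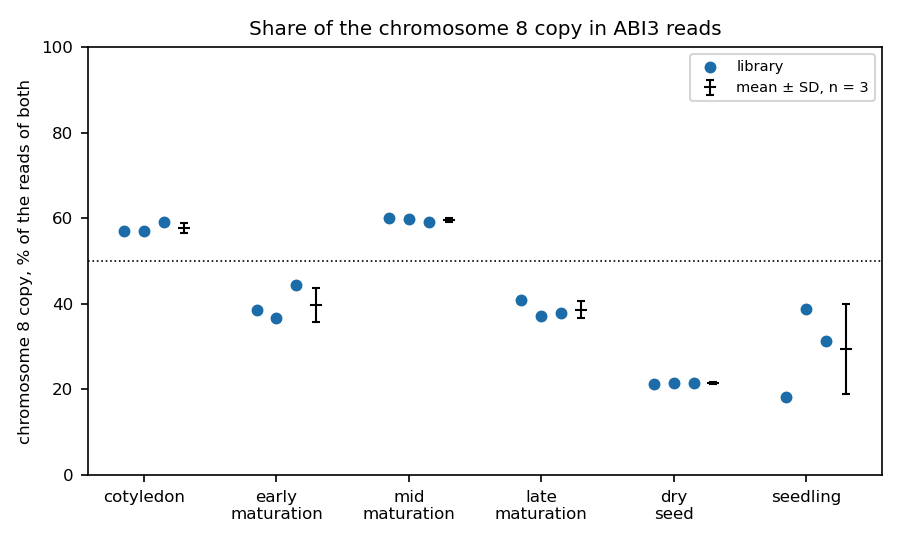
Share of the chromosome 8 copy in the reads of both ABI3 copies (%), by stage, with a point for each library and the mean ± SD of 3 libraries beside it. The share is 57.7% at the cotyledon stage, 39.8% in early maturation, 59.6% at mid maturation, 38.6% in late maturation, then 21.5% in dry seed, and it scatters widely in seedlings, where few reads remain.

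FUS3 (Glyma.16G050500) followed another course than the ABI3 copies, with its highest level at the cotyledon stage, a decline through maturation and drying, and a high level in seedlings. Cotyledon-stage libraries had values of 273, 268 and 266, early maturation libraries 98.2, 89.4 and 108, and mid maturation libraries 86.2, 78.4 and 77.3. Late maturation libraries had 34.3, 37.8 and 44.4 and dry seed libraries 9.81, 18.7 and 17.8. Seedling libraries had 122, 120 and 126. The 6 stages did not overlap in any pair, and seedlings lay above every stage but the cotyledon stage. The share of all genes tested without overlap is not given here, and 16.5% had their highest mean at the cotyledon stage. Dry seed replicate 1, with 38 reads against 71 and 76 in the others, was the lowest library.

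FUS3 fell at 3 of the 4 steps of seed development. Of all genes tested, 10.2% fell in early maturation against cotyledon, 23.6% in late against mid maturation and 14.5% in dry seed against late maturation. FUS3 averaged 98.4 ± 9.17 in early maturation and 269 ± 3.72 at the cotyledon stage, a log2 difference of -1.45 (SE 0.162, adjusted p = 2.35e-07). Mid maturation, with 80.6 ± 4.85, did not differ from early maturation beyond the limits, at -0.28 (SE 0.162, adjusted p = 0.149). In plain CPM that step was -1.05 and was called. Late maturation had 38.9 ± 5.11, a log2 difference of -1.04 from mid maturation (SE 0.162, adjusted p = 7.08e-06). This value lay close to the limit, and the call was lost in plain CPM (-0.58), without late maturation replicate 1 (-0.96) and without mid maturation replicate 1 (-0.99). Dry seed had 15.4 ± 4.89, a log2 difference of -1.32 from late maturation (SE 0.162, adjusted p = 6.80e-07). Over the whole course, dry seed stood at 5.74% of the cotyledon-stage mean, a log2 difference of -4.09 (SE 0.162, adjusted p = 1.16e-15). Between these stages 55.0% of genes tested were called.

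In seedlings FUS3 averaged 122.7 ± 3.02, against 15.4 ± 4.89 in dry seed, a log2 difference of 2.96 (SE 0.162, adjusted p = 2.27e-13) and a ratio of 7.95. Of all genes tested, 41.8% rose in this step, and 84.8% had a smaller change in either direction. Seedlings stood at 45.6% of the cotyledon-stage mean. Their log2 difference from the cotyledon stage was -1.13 (SE 0.162, adjusted p = 1.74e-06), where 51.2% of genes tested were called. This call was lost with median-of-ratios rescaling (-0.88) and with DESeq2 (-0.89). Against early maturation the seedling difference was 0.32 (adjusted p = 0.0779), where 51.9% of genes were called. Against mid maturation it was 0.60 (adjusted p = 0.0022), where 45.8% of genes were called, below the limit with deposited scaling but called at 1.67 in plain CPM. Against late maturation, where 55.1% of genes were called, the seedling difference was 1.64 (adjusted p = 5.54e-09). Storage globulin identifiers took at most 0.0147% of reads in those same seedling libraries, and both ABI3 copies were at 4 to 18 reads. Neither the assignment of the name FUS3 to this identifier nor the counting of its reads could be checked in the files, which limits what the seedling level says of FUS3. The order of stages of FUS3 was shared by 267 genes (0.724%).

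LEC2 was close to undetected at every stage sampled. Glyma.20G035800 had 1 read in all 18 libraries together, in cotyledon replicate 2. Glyma.20G035700 had 6 reads in 4 libraries, with 3 in early maturation replicate 1 and 1 each in early maturation replicate 3, late maturation replicate 3 and seedling replicate 2. No library of any stage exceeded 3 reads, so no level, order or fold is given. No value above the floor was found, and levels under the floor could not be measured at this depth. Over 107593423 reads of all libraries these counts correspond to 0.00929 CPM (95% exact Poisson interval 0.000235 to 0.0518) for Glyma.20G035800 and 0.0558 (0.0205 to 0.121) for Glyma.20G035700. The files list 0 identifiers without a read, and 3.57% of them had no more reads in all than Glyma.20G035800 and 12.3% no more than Glyma.20G035700. These values cover counted reads only, and the part of reads that match more than 1 gene was not tested. Stages earlier than the cotyledon stage were not analysed here.

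LEC1, the partner of the B3 factors, was examined through 2 identifiers assigned to it in published soybean work, Glyma.07G268100 and Glyma.17G005600, a pairing that the files do not contain. Both had their high levels in the cotyledon stage and early maturation. Glyma.07G268100 averaged 281 ± 1.28 at the cotyledon stage, then 305 ± 14.3 in early and 48.6 ± 6.32 at mid maturation (SD, n = 3). Its later means were 1.45 ± 2.52 (late maturation), 0.0879 ± 0.152 (dry seed) and 0.160 ± 0.143 (seedling). Glyma.17G005600 averaged 505 ± 14.1, 457 ± 30.4, 231 ± 20.5, 3.56 ± 3.80, 0.0779 ± 0.135 and 0.311 ± 0.211 at the same stages. With deposited scaling the pair thus stayed near its top level in early maturation, where the ABI3 copies were lowest among seed stages. In plain CPM both were highest at the cotyledon stage. Early maturation then stood at 87.3% (Glyma.07G268100) and 72.7% (Glyma.17G005600) of that mean, and neither difference was called. The pair had at most 1 read a library in dry seed, where the chromosome 18 copy of ABI3 was highest. Both fell in late against mid maturation, with log2 differences of -4.82 (adjusted p = 2.80e-10) and -5.98 (adjusted p = 4.96e-13). Late maturation replicate 1 held 16 reads of Glyma.07G268100 against 0 in the other 2 libraries, and it is the library that stood nearer to mid maturation across genes.

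The other 4 identifiers of the partner list carry no name in the files. Of the 6 in all, 4 fell and 0 rose between late and mid maturation, where 23.6% of all genes tested fell. Their median log2 difference was -4.69, against -0.11 over all genes tested. Glyma.04G039300 and Glyma.06G040400 rose in seedlings relative to dry seed, with log2 differences of 3.6 and 4.2 (limma adjusted p = 3.88e-12 and 4.98e-13). Of all genes tested, 41.8% rose in this step. In dry seed Glyma.04G039300 had 1 to 7 reads a library and Glyma.06G040400 0 to 1. Glyma.13G317000 and Glyma.12G184400 had their highest means at mid maturation. For Glyma.12G184400 this depended on the scaling. Its plain CPM means were nearly equal, at 15.6 (cotyledon stage), 14.7 (early maturation) and 15.9 (mid maturation). Of the 12 storage globulin identifiers, named from published assignments, 10 passed the filter. Of these, 10 rose at mid relative to early maturation, where 11.3% of all genes rose, with a median log2 difference of 4.93 against -0.06 over all genes. Between late and mid maturation 8 fell and 1 rose, where 23.6% of all genes fell, and 9 fell in seedlings relative to dry seed, where 19.8% of all genes fell.

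Among wider pairs of stages, all 3 tested genes were called in late against early maturation (1.33 and 1.41 for the ABI3 copies, -1.32 for FUS3), where 51.0% of genes were called. With deposited scaling FUS3 was the 1 tested gene called in late maturation against cotyledon, at -2.77, where 49.7% of genes were called, and in mid maturation against cotyledon, at -1.73, where 29.6% were. In plain CPM the chromosome 8 copy of ABI3 was also called in late maturation against cotyledon, at -1.22. The ABI3 copies fell in seedlings against each seed stage, with log2 differences of -8.98 to -6.40, and this held for all 5 seed stages in plain CPM as well.

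**Figure D4:**
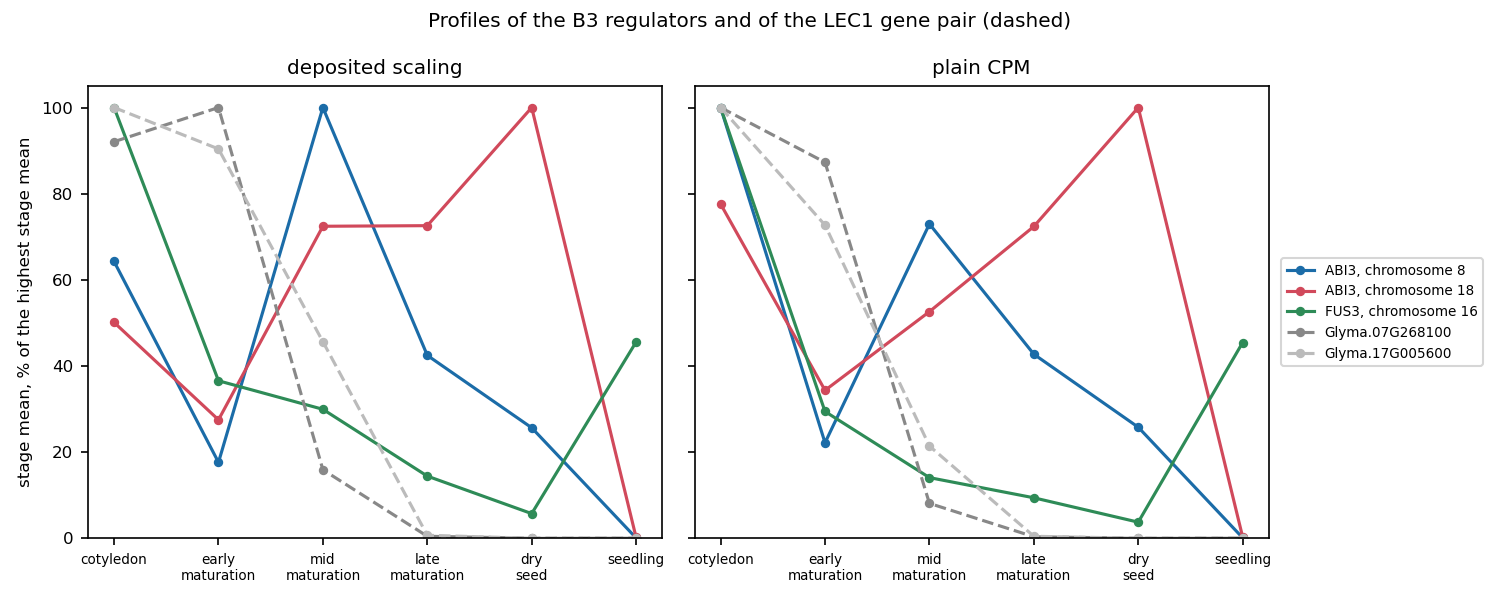
Stage mean as a percentage of the highest stage mean of each gene, for ABI3 on chromosome 8, ABI3 on chromosome 18, FUS3 and the identifiers of the LEC1 pair (dashed), with deposited scaling on the left and plain CPM on the right. With deposited scaling the chromosome 8 copy of ABI3 stands at 17.6% in early maturation and peaks at mid maturation, while in plain CPM it peaks at the cotyledon stage. FUS3 returns to 45.6% in seedlings.

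The ABI3 copies were alike over all libraries, and FUS3 was not like either of them. Across the 18 libraries, which include replicates of the same stage, Pearson's r of log2(value + 1) was 0.962 between the ABI3 copies. Without the seedlings, over 15 seed libraries, it was 0.431. FUS3 had r of -0.141 with the chromosome 8 copy and -0.371 with the chromosome 18 copy over 18 libraries, and 0.360 and -0.609 over the 15 seed libraries. With the LEC1 identifiers FUS3 had r of 0.648 and 0.635 over 18 libraries, and 0.881 and 0.894 over the seed libraries. This was not particular to LEC1, since the other partner identifiers had r of 0.496 to 0.881 with FUS3 over the seed libraries. These are descriptions of few stages and carry no test.

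The genes most like each member were sought by r over the 18 libraries among 24924 other genes with a highest stage mean of at least 10. For ABI3 on chromosome 8 these were Glyma.16G007400 (r = 0.980), Glyma.02G025000 (0.963) and the other ABI3 copy (0.962), in the third place. Glyma.16G007400 had a mean of 103 at the cotyledon stage and of 55.6, 93.9 and 90.5 in early, mid and late maturation, with 43.4 for dry seed and 1.22 for seedlings. For ABI3 on chromosome 18 they were Glyma.17G008200 (0.983), Glyma.16G090500 (0.983) and Glyma.05G022400 (0.975). For FUS3 they were Glyma.03G211400 (0.982), Glyma.05G210100 (0.979) and Glyma.17G152800 (0.975). Glyma.03G211400 had a mean of 28.8 at the cotyledon stage and of 12.4, 10.8 and 4.91 in early, mid and late maturation, with 1.10 for dry seed and 15.7 for seedlings. An r of at least 0.9 was reached by 88 genes for the chromosome 8 copy, 151 for the chromosome 18 copy and 692 for FUS3. Such an r takes in the seedling libraries, where both ABI3 copies were low. Over the 15 seed libraries the copies had an r of 0.431 with each other. A high r thus need not mean the same course over seed stages. Glyma.16G007400 and Glyma.02G025000 were highest at the cotyledon stage (103 and 59.8). Glyma.17G008200 was highest in dry seed (76.3), as was the chromosome 18 copy, but Glyma.16G090500 and Glyma.05G022400 in late maturation (118 and 10.4).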

How the data were processed

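Soybean mRNA of 18 libraries (3 per stage) was analysed. The deposited signal values of a library are whole multiples of 1 read, within 0.05 of a read for 927826 of 927828 values. The submitters' processing notes name Bowtie 0.12.7 and edgeR 3.0.8. The sources used here give neither build, annotation nor counting rule.

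Stages were compared with limma 3.58.1 (R 4.3.3) on log2(value + 1), with the trend option and all 18 libraries in 1 model, for the 36872 genes that reached a value of 1 in 3 or more. p-values were adjusted over all genes tested (Benjamini-Hochberg). edgeR 4.0.16 and DESeq2 1.42.0 on recovered reads were alternatives, beside pseudocounts, filters, rescaling, the replicate block and each library left out.

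Genes named are the 5 members, 6 partner identifiers, and for each measured member the 3 genes of highest r. Members and lists were chosen with earlier results of these data known. Lists that needed gene descriptions, promoters and proteins were not used here. Replicates all differed beyond counting noise (lowest chi-square ratio to its degrees of freedom, 1.49).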

Additional observations from a re-analysis of the deposited data

How the results depend on the processing

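Of 1395 log2 differences of the 3 measured genes in 15 pairs of stages under 31 alternatives, 1367 kept their direction and side of the threshold, 8 lost a call, 13 gained one and 7 reversed. Counts of all genes called in the 5 steps stayed within 1.5 times in 155 of 155 values. The reversals in plain CPM were -0.45 for the chromosome 8 copy of ABI3 in mid maturation against cotyledon, and, for the chromosome 18 copy, -0.56 in mid maturation against cotyledon, -0.10 in late maturation against cotyledon and 0.45 in late against mid maturation. In late against mid maturation, that copy ranged from -0.14 to 0.13 when 1 library was left out, and had 0.13 without early maturation replicate 3 and late maturation replicate 1 together. In this step 2 of the measured genes were called, against 0 in plain CPM, 1 without those libraries together, and 1 to 2 when 1 library was left out. The difference in log2 ratio of the ABI3 copies ranged from -1.55 to -1.28 without 1 library. No ratio was computed for the LEC2 copies, both at or under the floor, and no F test was made with the libraries of 1 pair of stages.

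Libraries showed no clear pairing by replicate number, which 3 replicates per stage are too few to settle. Deviations from stage means correlated above 0.1 in 2 of the 15 pairs that share a number across adjoining stages (-0.154 to 0.109 over all), and 8 of 18 libraries were closest to their own number. A replicate block left 2, 2, 2, 1 and 3 measured genes called in the 5 steps in stage order, and 6907 of all genes in early maturation against cotyledon. Depth limits LEC2 at every stage and the ABI3 copies in seedlings.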
